A study of Mus musculus with 19 samples.

Results

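The 10 immediate early response genes Fos, Fosb, Jun, Junb, Egr1, Ier2, Dusp1, Zfp36, Atf3 and Nr4a1 were followed in blood leukocytes of 2 mouse strains after injection of a fungal extract. They were taken as every non-control probe that carries one of these gene names in the scanner files, which gave 13 probes among the 41174 on the array. They are 10 of 27745 gene names there. Junb, Ier2 and Zfp36 had 2 probes each and the other genes had 1, and all 13 probes passed the filter on dim probes (a signal well above background in 2 or more of 18 samples).

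The extract, CAWS, is a water-soluble mannoprotein and β-glucan fraction of the yeast Candida albicans that causes arteritis in DBA/2 mice, many of which die, while few B6 mice do. Male mice of both strains received 1 mg per mouse intraperitoneally on 5 consecutive days. The time called 0 w was right after the 5th injection, so the 0 w arrays were themselves from CAWS-injected mice and no uninjected array was used here. Survivors were bled 2, 4, 8 and 9 weeks (w) later, so the late DBA/2 groups hold mice that outlived others of their group, and the animals ranged from 5 to 14 weeks of age. Each of the 10 strain-by-time groups held 2 samples, except B6 2 w and B6 9 w with 1, and B6 0 w replicate 2 was run on 2 arrays that were averaged, giving 18 samples on 19 arrays.

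Signals are given as normalized log2 signal, the log2 of the scanner's background-subtracted signal minus the 75th percentile of the same array over 11536 probes that were well above background on every array. A change is a difference of these values, so 1 unit is a doubling, and levels of different genes cannot be ranked against each other because each probe has its own brightness. Replicates lay very close together: the robust SD of their log2 differences over 11536 probes was 0.131 to 0.187 in the 8 groups with 2 samples, against 0.139 for the 2 arrays of 1 RNA. The labels call the replicates biological and the methods speak of RNA from individual mice, while the design text has each mouse run once or in duplicate. Which replicates came from separate mice was not given, so the p-values measure the spread between these samples, which may be technical. Replicate 1 and replicate 2 were scanned on different days. At no week did DBA/2 and B6 samples share a slide, so strain and slide cannot be told apart in levels of the same week. The DBA/2 9 w samples lay on other slides than those of DBA/2 0 w, so week and slide cannot be told apart there. All 4 general leukocyte markers were well above background in every sample, and the 9 hepatocyte markers were bright in B6 0 w and B6 8 w alone, as described with the marker genes at the end.

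Immediate early genes are switched on within minutes of a stimulus by transcription factors that are already present in the cell, so no new protein has to be made first. Kinase cascades reach serum response factor with its ETS partners on the CArG box and CREB on the cyclic AMP response element (CRE), and many of the messages are short-lived. Several members encode the proteins that end the response. In blood they are known from activated neutrophils, monocytes and lymphocytes, and they also respond to the handling of blood after it is drawn.

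The proximal promoters are shown for the 4 genes on which the results below turn most: Fos with the steepest rise, Dusp1 and Zfp36 as feedback genes, and Nr4a1 with a change that differed between strains. Promoter sequences of 8 of the 10 members matched the RefSeq promoter table (build GRCm38.p6), each taken as the 250 bases before the transcript start, written 5′ to 3′ on the gene's strand. Capitals mark matches on either strand to TGACG (the CRE core), its full palindrome TGACGTCA, GCGNGGGCG (the EGR site), the CArG box and TATAAA. The windows are chr12:85473640-85473889 on the plus strand for Fos, chr17:26508473-26508722 on the minus strand for Dusp1, chr7:28379229-28379478 on the minus strand for Zfp36, and chr15:101266596-101266845 on the plus strand for Nr4a1.
Fos: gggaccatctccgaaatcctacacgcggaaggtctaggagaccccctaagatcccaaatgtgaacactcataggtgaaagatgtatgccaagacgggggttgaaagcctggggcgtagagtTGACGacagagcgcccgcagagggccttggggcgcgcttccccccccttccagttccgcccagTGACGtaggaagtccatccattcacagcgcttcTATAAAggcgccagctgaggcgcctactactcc
Dusp1: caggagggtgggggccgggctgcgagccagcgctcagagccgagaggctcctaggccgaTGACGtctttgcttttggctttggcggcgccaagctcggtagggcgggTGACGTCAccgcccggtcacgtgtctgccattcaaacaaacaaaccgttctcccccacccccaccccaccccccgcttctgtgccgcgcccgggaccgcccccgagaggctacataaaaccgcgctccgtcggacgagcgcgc
Zfp36: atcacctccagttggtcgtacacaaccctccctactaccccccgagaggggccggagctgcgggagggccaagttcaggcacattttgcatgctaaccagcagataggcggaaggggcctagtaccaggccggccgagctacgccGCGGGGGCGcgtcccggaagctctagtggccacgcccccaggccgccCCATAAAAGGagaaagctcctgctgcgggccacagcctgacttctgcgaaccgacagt
Nr4a1: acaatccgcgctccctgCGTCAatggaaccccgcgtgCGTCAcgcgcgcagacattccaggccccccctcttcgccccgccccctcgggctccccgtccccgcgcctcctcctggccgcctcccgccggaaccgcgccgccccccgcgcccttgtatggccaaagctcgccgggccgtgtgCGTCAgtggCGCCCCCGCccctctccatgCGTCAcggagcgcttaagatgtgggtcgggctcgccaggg

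The CRE core was in 6 of the 8 member windows (Fos, Fosb, Junb, Dusp1, Atf3 and Nr4a1), against 17.8% of 32851 promoters of the same length. The full CRE, which contains the core, was in the Dusp1 window and in 1.55% of all promoters. A CArG box stood 58 to 49 bases before the Zfp36 start and in 1.47% of all promoters. The EGR site was in 3 member windows (Fosb, Zfp36 and Nr4a1) and in 4.7% of all, TATAAA was in the Fos window and in 12.4% of all, and TGANTCA, the AP-1 site, was in 0 member windows and in 6.75% of all. These matches describe letters in a short window and are no evidence that a factor binds there. Sequence outside the window was not searched, so a gene without a match here may still have such a site.

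In DBA/2 leukocytes more members were called higher than lower against 0 w at each later time, and the count was highest at 4 w. At 2 w, 5 members rose and 1 fell, where 15.7% of the 22939 tested probes of the whole array passed the same test (limma, Benjamini-Hochberg adjusted p under 0.05). At 4 w, 9 rose (14.8% of all probes called), with a median log2 change over the 10 genes of 1.5 where the median over all probes was -0.095. At 8 w, 7 rose and 1 fell (24% called), and at 9 w, 7 rose (27.7% called), with median member changes of 0.86 and 0.55 against 0.31 at 2 w. Each DBA/2 change at 9 w is also a change of slide, here and for each gene below.

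In B6 leukocytes 4 members rose at 2 w (13% of all probes called), 7 at 4 w (15.7%), 7 at 8 w (21.2%) and 5 at 9 w (9.33%). With 1 sample each, the B6 2 w and 9 w calls assume that the lone sample varies like the replicates of the other groups, here and for each gene below. The median member changes were 0.44, 0.98, 0.62 and 0.68, and the median over all probes stayed within 0.08 of 0. Of the 63 member calls in all comparisons, 54 rested on samples with both replicate numbers, and all 54 had the same sign within each scan day. These 54 had already passed the test on the same samples, so this agreement was nearly fixed in advance and is no separate support. The normexp background correction, which adds an offset of 50 to every signal, was tried in place of the scanner's own. With it, 19 of the 63 calls remained, and the share of all probes called fell to between 0.366% and 12.2%. The highest share was at DBA/2 9 w, where the median over all probes was then 0.78, so member calls kept there lie beside a rise of the whole array. In whole blood leukocytes, a change in a message cannot be told apart from a change in the share of cells that carry it.

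**Figure D1:**
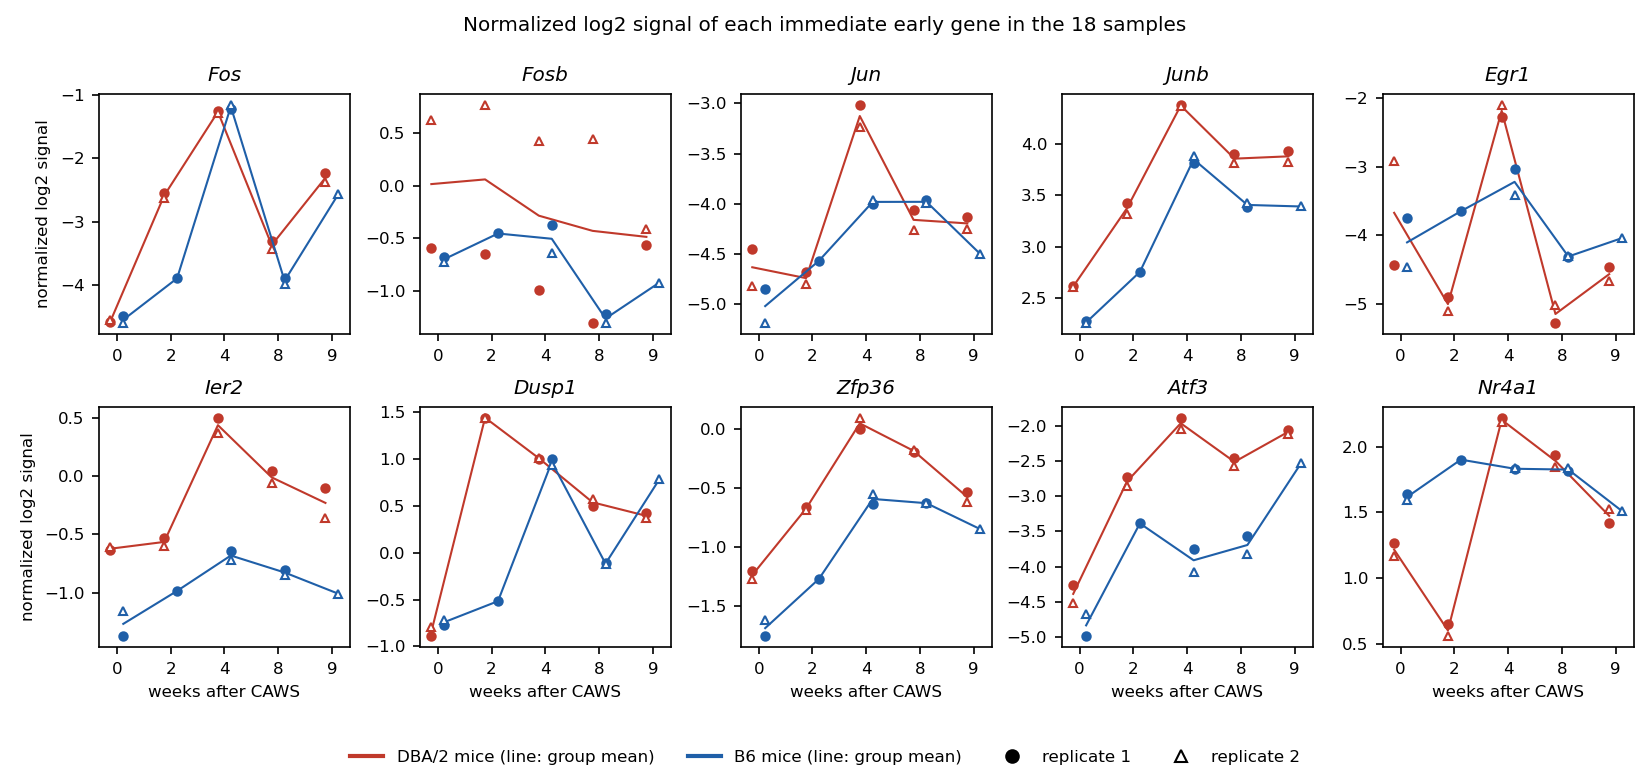
Normalized log2 signal (vertical axes) of each of the 10 genes by week after CAWS (horizontal axes), with DBA/2 in red and B6 in blue, filled circles for replicate 1, open triangles for replicate 2 and lines through the group means. DBA/2 4 w holds the highest group mean for 7 of the 10 genes and B6 0 w the lowest for 5, and the Fosb panel shows replicates far apart in DBA/2.

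Fos, the inducible partner of the Jun proteins in the AP-1 transcription factor, rose at every time in both strains and most at 4 w. Its probe lies at chr12:86366053-86366112 on mm8, the build of the array design, for which no annotation was given, so its place within the transcript was not determined. The normalized log2 signal in DBA/2 was -4.58 and -4.55 at 0 w, -2.55 and -2.63 at 2 w, -1.25 and -1.28 at 4 w, -3.30 and -3.43 at 8 w, and -2.24 and -2.37 at 9 w. In B6 it was -4.48 and -4.60 at 0 w, -3.89 at 2 w, -1.22 and -1.15 at 4 w, -3.88 and -3.97 at 8 w, and -2.56 at 9 w. No later sample of either strain overlapped its 0 w samples, and the 4 samples at 4 w were the highest of all 18.

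The corresponding scanner signals of Fos in DBA/2 were 19.87 and 20.44 at 0 w and 204.1 and 196.9 at 4 w, so the rise started from a dim spot, which on 1 of the 2 DBA/2 0 w arrays was not well above background. In B6 the 0 w signals were dimmer still, at 12.22 and 11. On array 2 of B6 0 w replicate 2, 0 of 10 Fos spots were well above background. The fitted change in DBA/2 was 1.98 at 2 w (3.95-fold, SE 0.086, adjusted p = 6.73e-06), 3.30 at 4 w (9.84-fold, adjusted p = 2.96e-07), 1.20 at 8 w (2.3-fold, adjusted p = 1.19e-05) and 2.26 at 9 w (4.8-fold, adjusted p = 9.85e-07). In B6 it was 0.65 at 2 w (1.57-fold, SE 0.105, adjusted p = 0.00276), 3.36 at 4 w (10.2-fold, adjusted p = 3.6e-08), 0.62 at 8 w (1.53-fold, adjusted p = 0.000872) and 1.98 at 9 w (3.94-fold, adjusted p = 5.9e-06). The Fos signals at 8 w lay below those at 4 w and 9 w in both strains. With normexp correction the DBA/2 changes were 0.71 at 2 w and 0.31 at 8 w, no longer called (adjusted p = 0.646 and 1), and those at 4 w (1.53) and 9 w (1.43) still were. At DBA/2 9 w the median over all probes was then 0.78. The B6 changes were then 0, 1.17, -0.66 and 0.19 at the 4 times, none of them called (adjusted p = 1, 0.28, 0.198 and 0.789), and the median over all probes was itself -0.63 at B6 8 w. Fos had 8 to 10 usable spots on each array, with a median coefficient of variation of 7.36%. On the 0 w arrays, the reference of every fold, it ran from 17.1% to 34.7%.

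Fosb, a close relative of Fos, passed the test in none of the 11 comparisons by limma, with adjusted p from 0.488 to 0.986, and its lowest unadjusted p was 0.323. Its DBA/2 signals in replicates 1 and 2 were -0.59 and 0.62 at 0 w, -0.65 and 0.77 at 2 w, -0.99 and 0.42 at 4 w, -1.30 and 0.44 at 8 w, and -0.57 and -0.41 at 9 w. Replicate 2 was higher than replicate 1 by 1.21 to 1.74 at the first 4 times, which were hybridized on 1 slide per replicate, while at 9 w, on other slides, the gap was 0.16. In B6 the signals ran from -1.31 to -0.37, and the replicates differed by 0.05 to 0.27. Fosb therefore carries an SE of 0.68 or more on its changes, and the part of the slide in it was not tested.

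**Figure D2:**
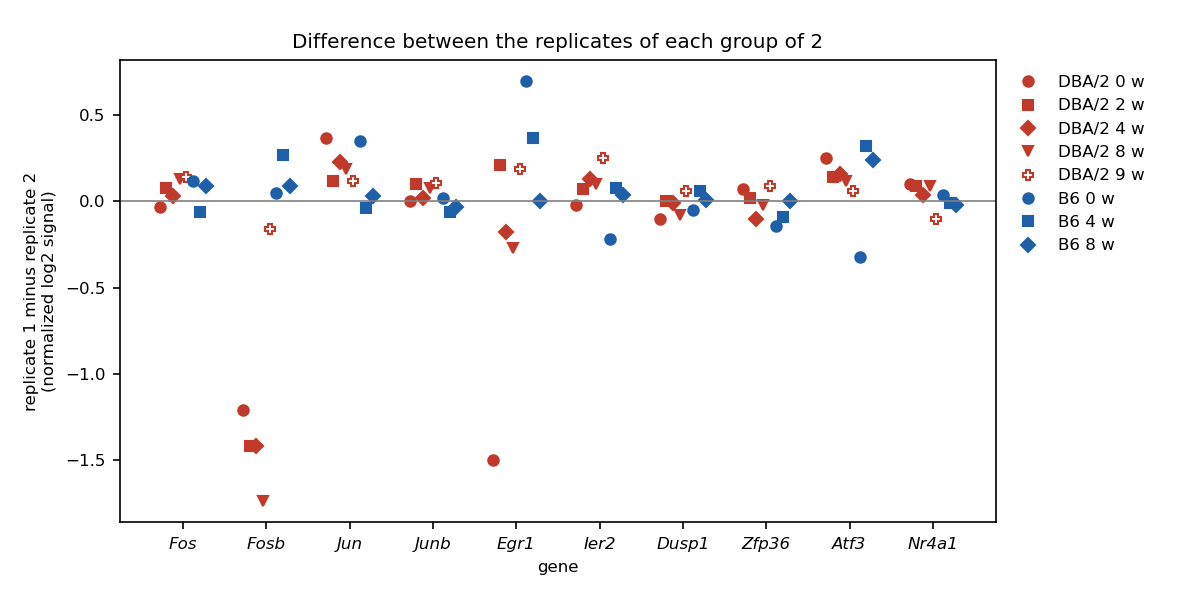
Difference in normalized log2 signal between replicate 1 and replicate 2 (vertical axis) for each of the 10 genes (horizontal axis) in the 8 groups with 2 samples, DBA/2 in red and B6 in blue. Most points lie near 0, while Fosb lies between -1.21 and -1.74 in 4 DBA/2 groups and Egr1 at -1.5 in DBA/2 0 w.

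Jun, the founding AP-1 subunit, rose in DBA/2 at 4 w and in B6 at 4 w and 8 w. Its probe (chr4:94541191-94541250, mm8) gave -4.45 and -4.82 in DBA/2 at 0 w, -4.68 and -4.81 at 2 w, -3.01 and -3.24 at 4 w, -4.07 and -4.26 at 8 w, and -4.14 and -4.26 at 9 w. B6 had -4.85 and -5.20 at 0 w, -4.57 at 2 w, -4.0 and -3.96 at 4 w, -3.97 and -4.0 at 8 w, and -4.50 at 9 w. The DBA/2 4 w samples stood above all others, and the remaining groups lay close together, with 8 of the 9 neighbouring pairs of group means within 2 pooled SDs (0.15 each).

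The change of Jun was 1.51 in DBA/2 at 4 w (2.85-fold, SE 0.155, adjusted p = 0.000211) and 1.04 in B6 at both 4 w (2.06-fold, adjusted p = 0.00215) and 8 w (2.06-fold, adjusted p = 0.00122). DBA/2 8 w (0.47, adjusted p = 0.0532) and 9 w (0.44, adjusted p = 0.0636) did not pass. On the B6 2 w and 9 w arrays the probe was not well above background, so no fold is given there. Replicate 2 at 0 w was not well above background in either strain, so the 0 w level behind the folds given is weakly determined. With normexp correction none of these 3 calls was kept, with 0.42 in DBA/2 at 4 w, 0.13 in B6 at 4 w (adjusted p = 1 for both) and -0.60 in B6 at 8 w (adjusted p = 0.286).

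Junb, an AP-1 subunit that often tempers Jun activity, rose at every time in both strains and with the smallest replicate differences of the AP-1 genes. Its probe (chr8:87867087-87867146, mm8) gave 2.62 and 2.61 in DBA/2 at 0 w, 3.43 and 3.32 at 2 w, 4.38 and 4.36 at 4 w, 3.90 and 3.81 at 8 w, and 3.93 and 3.82 at 9 w. B6 had 2.27 and 2.25 at 0 w, 2.76 at 2 w, 3.82 and 3.88 at 4 w, 3.39 and 3.42 at 8 w, and 3.39 at 9 w. On this probe both strains peaked at 4 w, and every DBA/2 sample lay above every B6 sample of the same time.

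In DBA/2 Junb changed by 0.76 at 2 w (1.69-fold, SE 0.075, adjusted p = 0.000279), 1.76 at 4 w (3.39-fold, adjusted p = 1.77e-06), 1.24 at 8 w (2.37-fold, adjusted p = 3.7e-06) and 1.27 at 9 w (2.4-fold, adjusted p = 6.37e-06). The B6 changes were 0.49 at 2 w (1.41-fold, SE 0.091, adjusted p = 0.00617), 1.59 at 4 w (3.0-fold, adjusted p = 1.35e-06), 1.14 at 8 w (2.21-fold, adjusted p = 9.15e-06) and 1.13 at 9 w (2.19-fold, adjusted p = 6.81e-05). The second Junb probe, which overlaps the first and has larger errors (SE 0.275 to 0.337), moved the same way in all 8 comparisons and passed in 5 of them, with 1.45 in DBA/2 and 0.99 in B6 at 4 w. On that probe the strains overlapped at 0 w (2.19 and 2.01 in DBA/2, 2.15 and 2.60 in B6), and B6 was highest at 9 w (3.73). Its DBA/2 9 w value rests on 1 array because the other spot was marked as an outlier. With normexp correction the main probe lost its 2 w call in both strains (0.79 in DBA/2, adjusted p = 0.102) and its B6 9 w call (1.15, adjusted p = 0.0744).

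Atf3, a stress-inducible member of the ATF and CREB family that can pair with Jun and repress inflammatory genes, rose at every time in both strains. Its probe (chr1:192871283-192871342, mm8) gave -4.26 and -4.51 in DBA/2 at 0 w, -2.72 and -2.86 at 2 w, -1.88 and -2.04 at 4 w, -2.45 and -2.57 at 8 w, and -2.05 and -2.12 at 9 w. In B6 the values were -4.99 and -4.68 at 0 w, -3.39 at 2 w, -3.75 and -4.07 at 4 w, -3.57 and -3.81 at 8 w, and -2.53 at 9 w. DBA/2 was highest at 4 w, whereas B6 was highest at 9 w, in its single sample.

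Atf3 changed in DBA/2 by 1.60 at 2 w (3.03-fold, SE 0.156, adjusted p = 0.000276), 2.43 at 4 w (5.37-fold, adjusted p = 1.16e-05), 1.88 at 8 w (3.67-fold, adjusted p = 3.07e-05) and 2.30 at 9 w (4.94-fold, adjusted p = 1.42e-05). The B6 changes were 1.45 at 2 w (2.73-fold, SE 0.191, adjusted p = 0.000784), 0.92 at 4 w (1.9-fold, adjusted p = 0.00415), 1.14 at 8 w (2.21-fold, adjusted p = 0.000753) and 2.31 at 9 w (4.95-fold, adjusted p = 7.73e-05). The 0 w levels are weakly determined: 1 sample of each strain was not well above background there, and the 2 arrays of the B6 0 w replicate 2 RNA differed by 1.07. Using only the first of those arrays, the B6 4 w change was 0.66 (adjusted p = 0.0979). With normexp correction the DBA/2 9 w call was kept (1.51), and the other calls of Atf3 were not, the B6 8 w change being -0.45 (adjusted p = 0.244) and the DBA/2 4 w change 1.11 (adjusted p = 0.173). At DBA/2 9 w the median over all probes was then 0.78.

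Of 9 listed relatives of the AP-1 members 7 were tested, and 2, 2, 4 and 3 of them were higher in DBA/2 at 2, 4, 8 and 9 w, where 7.91%, 7.58%, 10% and 13.4% of all probes were called higher. Jdp2, a dimerization partner that represses AP-1, rose in DBA/2 by 1.01, 1.44, 1.62 and 1.29 at the 4 times (SE 0.19, adjusted p = 0.00736 to 0.000291). Jund, the constitutive Jun protein, rose in DBA/2 by 0.79 at 2 w (adjusted p = 0.000183) and fell by 0.67 in B6 at 8 w (adjusted p = 0.000179). In B6 1 relative was higher at each of 2, 4 and 8 w.

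Egr1, a zinc finger factor induced by growth factors and antigen receptors, was highest in DBA/2 at 4 w and had a poorly fixed 0 w level. It gave -4.43 and -2.92 in DBA/2 at 0 w, -4.90 and -5.11 at 2 w, -2.28 and -2.10 at 4 w, -5.28 and -5.01 at 8 w, and -4.47 and -4.66 at 9 w. B6 had -3.75 and -4.46 at 0 w, -3.65 at 2 w, -3.04 and -3.41 at 4 w, -4.31 and -4.31 at 8 w, and -4.04 at 9 w. The DBA/2 0 w replicates differed by 1.5, with scanner signals of 22.15 and 63.3 on the 2 arrays.

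Egr1 was called higher in DBA/2 at 4 w by 1.48 (2.8-fold, SE 0.41, adjusted p = 0.0396) and lower at 8 w by a log2 change of -1.47 (2.77-fold, adjusted p = 0.028). Without DBA/2 0 w replicate 1 the 4 w change was 0.73 (adjusted p = 0.172), and without replicate 2 it was 2.24 (adjusted p = 0.0024). Without DBA/2 0 w replicate 2 the 8 w change was -0.72 (adjusted p = 0.131), and without replicate 1 it was -2.22 (adjusted p = 0.00125). In all, 17 of 32 other settings ended the 4 w call and 7 ended the 8 w call, while the direction of each held. At DBA/2 9 w the probe was not well above background on either array, and the fitted change was -0.89 (adjusted p = 0.142), with -0.04 within replicate 1 and -1.74 within replicate 2. The B6 changes of 0.45, 0.88, -0.21 and 0.06 did not pass.

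Of 7 listed relatives and corepressors, the paralogs Egr3, Egr4, Nr4a2 and Nr4a3 did not pass the filter on dim probes. Among the tested Egr2, Nab1 and Nab2, calls were made for Nab1, a corepressor of EGR proteins, which fell by 0.69 in B6 at 2 w (adjusted p = 0.0413) and whose change at 8 w was lower in DBA/2 than in B6 by a log2 difference of -0.82 (adjusted p = 0.0286).

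Nr4a1, the orphan nuclear receptor Nur77 that marks antigen receptor signalling and is made by patrolling monocytes, fell and then rose in DBA/2. Its probe (chr15:101102674-101102733, mm8) gave 1.27 and 1.17 in DBA/2 at 0 w, 0.65 and 0.55 at 2 w, 2.22 and 2.19 at 4 w, 1.94 and 1.85 at 8 w, and 1.42 and 1.53 at 9 w. In B6 it stayed between 1.51 and 1.90 in all 8 samples, with 1.64 and 1.60 at 0 w. The DBA/2 2 w samples were the lowest of all 18 and the DBA/2 4 w samples the highest.

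The change of Nr4a1 in DBA/2 was -0.62 at 2 w (1.53-fold, SE 0.076, adjusted p = 0.000881), 0.99 at 4 w (1.99-fold, adjusted p = 3.35e-05), 0.68 at 8 w (1.6-fold, adjusted p = 0.000201) and 0.26 at 9 w (1.2-fold, adjusted p = 0.0319). The 9 w call was lost without DBA/2 0 w replicate 1 (0.31, adjusted p = 0.0573), without DBA/2 0 w replicate 2 (0.21, adjusted p = 0.17) or without DBA/2 9 w replicate 2 (0.21, adjusted p = 0.151). With normexp correction the 4 w call of Nr4a1 was kept, and those at 2 w (-0.56, adjusted p = 0.271), 8 w (0.66, adjusted p = 0.0917) and 9 w (0.06, adjusted p = 0.776) were not. The B6 changes ran from -0.11 to 0.28 with adjusted p of 0.0818 or more.

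Dusp1, a phosphatase that removes the activating phosphates from stress-activated MAP kinases and so ends the signal, rose at every time in DBA/2 and at 3 of 4 times in B6. Its probe (chr17:26233451-26233508, mm8) gave -0.89 and -0.79 in DBA/2 at 0 w, 1.44 and 1.44 at 2 w, 1.01 and 1.01 at 4 w, 0.50 and 0.58 at 8 w, and 0.42 and 0.37 at 9 w. B6 had -0.77 and -0.71 at 0 w, -0.52 at 2 w, 1.00 and 0.94 at 4 w, -0.11 and -0.12 at 8 w, and 0.78 at 9 w. Every later sample lay above the 0 w samples of its strain, and the DBA/2 4 w and B6 4 w means were the neighbouring pair that lay within 2 pooled SDs (0.04 each).

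In DBA/2 the largest change of Dusp1 came first, with 2.29 at 2 w (4.88-fold, SE 0.071, adjusted p = 4.07e-07), 1.85 at 4 w (3.61-fold, adjusted p = 1.21e-06), 1.38 at 8 w (2.61-fold, adjusted p = 1.43e-06) and 1.24 at 9 w (2.36-fold, adjusted p = 5.56e-06). In B6 the 2 w change was 0.22 (SE 0.087, adjusted p = 0.141), followed by 1.71 at 4 w (3.27-fold, adjusted p = 7.17e-07), 0.63 at 8 w (1.54-fold, adjusted p = 0.000249) and 1.52 at 9 w (2.88-fold, adjusted p = 8.95e-06). Each of the DBA/2 calls of Dusp1 was kept under every other setting tried, while the B6 8 w call was lost with normexp correction (0.39, adjusted p = 0.135). Of 6 other listed dual-specificity phosphatases, 5 were tested. Dusp2, which acts on nuclear MAP kinases of activated leukocytes, rose by 0.60 in DBA/2 at 2 w (adjusted p = 0.00156) and was lower at 8 w in both strains, by a log2 change of -0.37 in DBA/2 (adjusted p = 0.01) and -1.15 in B6 (adjusted p = 1.72e-05), and by -0.65 in B6 at 9 w (adjusted p = 0.00362).

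Zfp36, or tristetraprolin, binds AU-rich elements and speeds the decay of cytokine messages such as that of Tnf, and it rose at every time in both strains. Its probe (chr7:28085873-28085932, mm8) gave -1.20 and -1.27 in DBA/2 at 0 w, -0.66 and -0.69 at 2 w, 0.00 and 0.10 at 4 w, -0.19 and -0.17 at 8 w, and -0.53 and -0.62 at 9 w. B6 had -1.76 and -1.62 at 0 w, -1.27 at 2 w, -0.64 and -0.55 at 4 w, -0.63 and -0.63 at 8 w, and -0.85 at 9 w. On this probe every DBA/2 sample lay above every B6 sample of the same time. On the second Zfp36 probe the strains overlapped at 8 w (-3.433 and -2.915 in DBA/2, -3.566 and -3.361 in B6).

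Zfp36 changed in DBA/2 by 0.56 at 2 w (1.48-fold, SE 0.08, adjusted p = 0.0018), 1.29 at 4 w (2.44-fold, adjusted p = 9.86e-06), 1.05 at 8 w (2.08-fold, adjusted p = 1.8e-05) and 0.66 at 9 w (1.58-fold, adjusted p = 0.000338). The B6 changes were 0.42 at 2 w (1.34-fold, adjusted p = 0.0212), 1.10 at 4 w (2.14-fold, adjusted p = 3e-05), 1.06 at 8 w (2.08-fold, adjusted p = 2.32e-05) and 0.84 at 9 w (1.79-fold, adjusted p = 0.000726). Without B6 0 w replicate 1 the B6 2 w change was 0.35 (adjusted p = 0.0994). With normexp correction the DBA/2 calls at 4, 8 and 9 w were kept, the DBA/2 2 w call was not (0.40, adjusted p = 0.55), and no B6 call was, with changes of 0.14 to 0.61. At DBA/2 9 w the median over all probes was then 0.78, above the Zfp36 change there, which was at most 0.71 in any setting. The second Zfp36 probe moved the same way throughout and passed in DBA/2 at 4 w (1.05) and in B6 at 4 w (1.97) and 8 w (1.85).

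Among 8 listed relatives and known targets of Zfp36, 7 were tested. Il1b, the message of the fever-inducing cytokine interleukin-1β, rose at every time, by 1.57, 2.52, 2.57 and 2.30 in DBA/2 and by 1.18, 1.86, 2.93 and 2.61 in B6 (adjusted p of 6.59e-05 or less). Ccl3, a chemokine message, rose at 4 w by 2.53 in DBA/2 (adjusted p = 1.84e-06) and by 1.31 in B6 (adjusted p = 7.51e-05). Its 4 w samples lay at 0.47 and 0.30 in DBA/2 and at -0.69 and -0.77 in B6, above all samples of other times, which ran from -2.58 to -1.37.

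Ier2, a nuclear protein of little-known function, was called higher by its main probe in DBA/2 from 4 w on and in B6 at 4 w and 8 w. That probe (chr8:87549656-87549690, mm8) gave -0.64 and -0.61 in DBA/2 at 0 w, -0.53 and -0.60 at 2 w, 0.51 and 0.38 at 4 w, 0.04 and -0.06 at 8 w, and -0.10 and -0.36 at 9 w. B6 had -1.38 and -1.16 at 0 w, -0.99 at 2 w, -0.64 and -0.72 at 4 w, -0.81 and -0.85 at 8 w, and -1.01 at 9 w. All 10 DBA/2 samples were at or above the highest B6 sample.

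The main Ier2 probe changed in DBA/2 by 1.06 at 4 w (2.09-fold, SE 0.109, adjusted p = 0.000206), 0.61 at 8 w (1.53-fold, adjusted p = 0.00292) and 0.39 at 9 w (1.31-fold, adjusted p = 0.0241), and in B6 by 0.59 at 4 w (1.5-fold, adjusted p = 0.00657) and 0.44 at 8 w (1.36-fold, adjusted p = 0.0181). The 9 w call was lost without DBA/2 0 w replicate 1 (0.38, adjusted p = 0.101), DBA/2 0 w replicate 2 (0.41, adjusted p = 0.0808) or DBA/2 9 w replicate 1 (0.27, adjusted p = 0.119). In B6 the 4 w call was lost without B6 0 w replicate 1 (0.48, adjusted p = 0.0577), and the 8 w call without that sample (0.33, adjusted p = 0.132), without B6 8 w replicate 1 (0.42, adjusted p = 0.0857) or without B6 8 w replicate 2 (0.46, adjusted p = 0.0632). With normexp correction the DBA/2 4 w call of Ier2 was kept, and the other 4 were not, with changes of 0.52 and 0.29 in DBA/2 at 8 and 9 w and of 0.41 and 0.23 in B6 (adjusted p = 0.109, 0.129, 0.62 and 0.231).

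The second Ier2 probe (chr8:87549829-87549887, mm8) gave a different picture, and which probe follows the message was not tested. It rose in DBA/2 at 9 w by 1.73 (3.32-fold, SE 0.205, adjusted p = 0.000292), from -3.47 and -3.35 at 0 w to -1.48 and -1.88. In B6 at 8 w it fell by 1.21 (2.31-fold, adjusted p = 0.00267), from -2.33 and -2.61 to -3.97 and -3.39, where the main probe rose. Averaged over both probes, the B6 8 w change of Ier2 was -0.38.

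**Figure D3:**
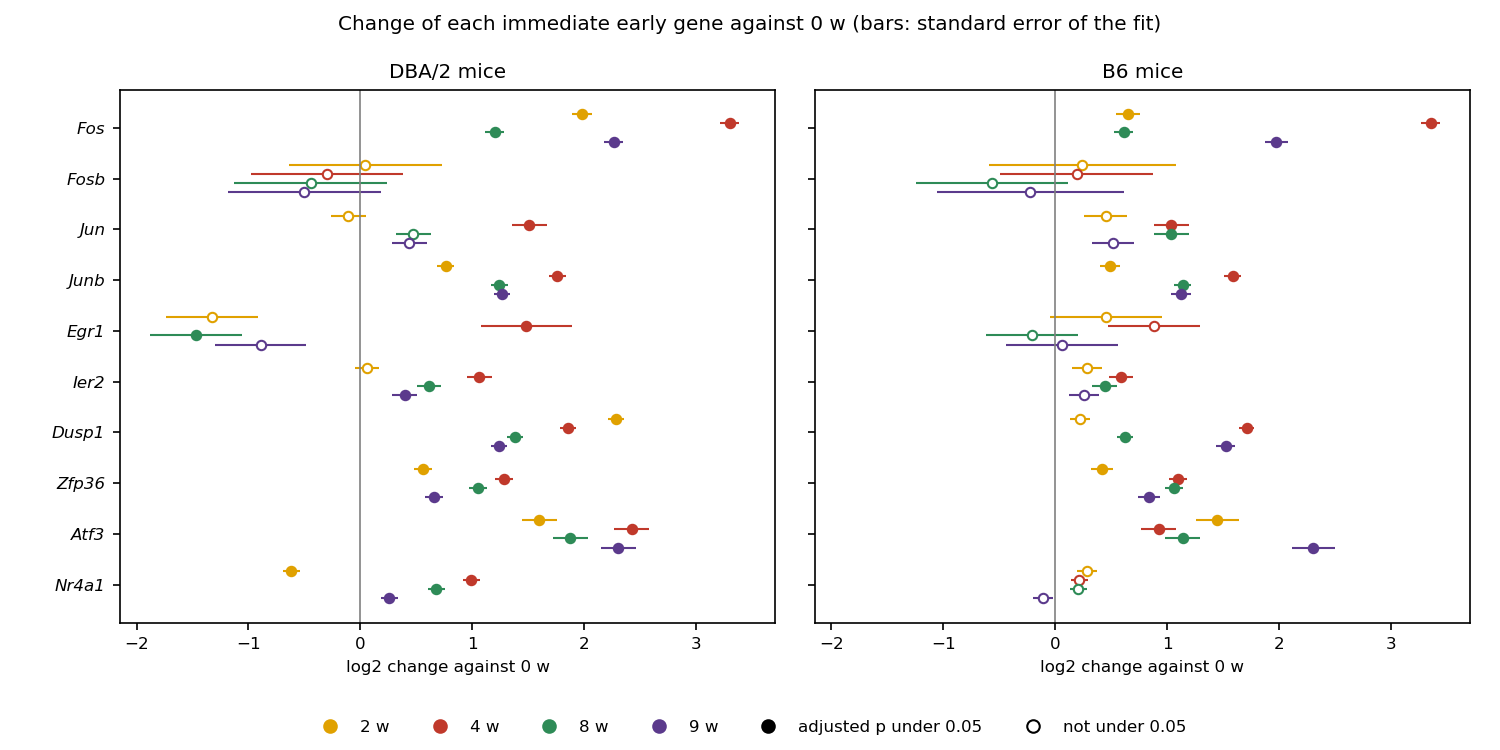
Log2 change against 0 w of the same strain (horizontal axis) for each of the 10 genes (vertical axis) at 2, 4, 8 and 9 w, DBA/2 and B6 in separate panels, with bars for the standard error of the fit and filled points for an adjusted p under 0.05. Fos reaches 3.30 in DBA/2 and 3.36 in B6 at 4 w, Dusp1 is at 2.29 in DBA/2 and 0.22 in B6 at 2 w, and Fosb has the widest bars.

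Comparing the strains at 0 w, 3 members were higher and 1 was lower in DBA/2 than in B6, in a comparison in which 32.7% of all probes passed. The strains lay on different slides at 0 w, so a difference between slides cannot be told apart from one between strains here. Ier2 was higher by 0.65 (adjusted p = 0.00152) on its main probe and lower by a log2 difference of -0.94 (adjusted p = 0.0064) on its second. Zfp36 was higher by 0.45 (adjusted p = 0.00214) and Junb by 0.35 (adjusted p = 0.00566), although the mean of the 2 Junb probes gave 0.04 (adjusted p = 0.891). Nr4a1 was lower by a log2 difference of -0.40 (adjusted p = 0.00297). Fos differed by -0.03 (SE 0.086, adjusted p = 0.863) and Dusp1 by -0.10 (SE 0.071, adjusted p = 0.323).

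The change from 0 w differed between strains for 2 members at 4 w (11.8% of all probes called). Atf3 rose more in DBA/2 by 1.5 (SE 0.22, adjusted p = 0.00212) and Nr4a1 by 0.78 (SE 0.11, adjusted p = 0.00156). For Fos, with the largest 4 w change in each strain, the difference was -0.06 (SE 0.12, adjusted p = 0.851), beside changes of 3.30 and 3.36. Junb (0.17), Zfp36 (0.19) and Dusp1 (0.14) had differences with adjusted p of 0.361 or more.

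At 8 w the change differed for 4 members, all larger in DBA/2 (17.5% of all probes called). They were Dusp1 by 0.76 (SE 0.10, adjusted p = 0.00102), Fos by 0.59 (SE 0.12, adjusted p = 0.00983), Nr4a1 by 0.47 (SE 0.11, adjusted p = 0.0156) and Atf3 by 0.73 (SE 0.22, adjusted p = 0.0482). Leaving out DBA/2 0 w replicate 2 or DBA/2 8 w replicate 1 left 2 of these 4 calls. The Atf3 difference missed the threshold in 19 of 31 other settings. Among them were most of the fits that left out 1 sample, such as that without B6 0 w replicate 2 (0.58). Some of the samples left out belonged to other weeks. The Nr4a1 difference missed the threshold without DBA/2 0 w replicate 2 (0.42), DBA/2 8 w replicate 1 (0.42) or B6 0 w replicate 1 (0.45). With normexp correction these 4 differences missed the threshold, with 0.76 for Dusp1 (adjusted p = 0.0995), 0.97 for Fos and 0.34 for Nr4a1 (adjusted p = 0.547 for both) and 1.2 for Atf3 (adjusted p = 0.349), as did those at 4 w, with 0.98 for Atf3 (adjusted p = 0.976) and 0.77 for Nr4a1 (adjusted p = 0.464). At 2 w and 9 w, where B6 had 1 sample, the difference between strains was not tested.

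Over the 10 group means the members varied together to differing degrees. Of 45 gene pairs, 40 had a positive Pearson correlation, with a median of 0.49 and a range from -0.45 (Fosb and Nr4a1) to 0.96 (Junb and Zfp36). Fos followed Dusp1 and Junb (0.85 each), and Jun followed Junb (0.85). The 10 points share their arrays, their scaling and their cell mixture, so these values describe the set and are not tested.

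The order of the groups also differed by gene. For Fos the order from high to low was B6 4 w, DBA/2 4 w, DBA/2 9 w, B6 9 w, DBA/2 2 w, DBA/2 8 w, B6 2 w, B6 8 w, B6 0 w and DBA/2 0 w. Within 2 pooled SDs (0.07 each) of one another were the 2 groups at 4 w, B6 9 w and DBA/2 2 w, B6 2 w and B6 8 w, and the 2 groups at 0 w. For Dusp1 1 of 9 neighbouring pairs was that close, for Junb, Zfp36, Atf3 and Nr4a1 4 of 9 each, for Ier2 5, for Jun and Egr1 8, and for Fosb all 9. The group means of Fos spanned 3.38 log2 units, those of Egr1 2.95 and those of Atf3 2.87.

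Among 8482 other genes, the profile over 18 samples was most like that of Zfp36 for Il1b (r = 0.93), Clec4d (0.916) and Klf6 (0.911), and most like that of Junb for Nfkbiz (0.904), Cd14 (0.892) and Il1b (0.89). Atf3 had Ets2 (0.913), Cd14 (0.903) and Mcl1 (0.893), and Ier2 had Klf6 (0.903), Tnni2 (0.878) and Nod2 (0.871). For Fos the closest were lower, with Gsk3b at 0.71, Rap1a at 0.704 and Cmip at 0.703, and Dusp1 also had Rap1a (0.858) first. Jun was closest to Trib1 (0.805), Rbms1 (0.792) and Nfkbiz (0.78), Egr1 to Ccl4 (0.782), Ikzf3 (0.744) and Zfp36l1 (0.717), and Nr4a1 to Uvrag (0.835), Anks1 (0.831) and Rela (0.785). Fosb was closest to Folr1 (0.985), Nkiras2 (0.984) and Hebp2 (0.982). Its replicate 1 minus replicate 2 gap was -1.21 to -1.74 in DBA/2 at 0 to 8 w, where its group means spanned 1.32 over all groups. The part of that gap in these correlations was not tested.

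The wider immediate early response was read from 21 further genes of this class, all of them tested. In DBA/2, 6, 12, 11 and 13 of the 21 were higher at 2, 4, 8 and 9 w by limma, while in B6 2, 3, 8 and 5 were. The shares of all probes called higher were those given above for DBA/2 and 5.28%, 6.02%, 11% and 5.48% for B6. At most 2 were lower at a time in DBA/2 and at most 4 in B6. Ier3, a stress-induced survival gene, was called higher in DBA/2 at 4, 8 and 9 w (adjusted p = 0.0049, 0.00351 and 0.00176), but it was well above background in only 6 of 18 samples, so no size is given. Nfil3, a leucine zipper repressor, rose at 8 w by 2.30 in DBA/2 (adjusted p = 6.82e-07), from -2.54 and -2.69 to -0.25 and -0.37, and by 1.45 in B6 (adjusted p = 1.96e-05). Klf6, a zinc finger factor of activated myeloid cells, rose in DBA/2 by 0.50, 0.91, 0.81 and 0.52 and in B6 by 0.33 at 4 w, 0.48 at 8 w and 0.51 at 9 w. Cd69, an early activation marker of lymphocytes, fell by 1.55 in B6 at 8 w (adjusted p = 6.26e-05).

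Of 15 kinases and factors that act upstream of the members, 14 were tested, and 2, 2, 3 and 3 were higher and 2, 1, 2 and 2 lower in DBA/2 at the 4 times. Of all probes, 15.7%, 14.8%, 24% and 27.7% were called there in either direction. In B6 0, 1, 3 and 2 were higher and 3, 1, 1 and 0 lower, where 13%, 15.7%, 21.2% and 9.33% of all probes were called. Mapk8, which encodes the kinase JNK1 that phosphorylates Jun, fell in DBA/2 by 0.84, 0.95 and 0.66 at 4, 8 and 9 w (SE 0.17, adjusted p = 0.0104, 0.00313 and 0.0183). At 4 w the B6 samples were higher by 0.88 (adjusted p = 0.0083), and the 4 w change of Mapk8 was lower in DBA/2 by a log2 difference of -1.72 (adjusted p = 0.00168). These are messages, and kinase activity was not measured. Mapk8 was read from the brightest of its 5 probes.

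Markers of several cell types changed in the same comparisons. The shares of all probes called higher were those given above. Called lower were 7.82%, 7.22%, 14% and 14.3% of all probes in DBA/2 and 7.74%, 9.66%, 10.2% and 3.86% in B6. Of 9 neutrophil markers, 8, 9, 9 and 9 were higher than at 0 w in DBA/2 and 9, 8, 9 and 9 in B6. Their summed signal relative to the array's percentile was 107 to 108 in DBA/2 at 0 w, 281 to 291 at 2 w, 336 to 362 at 4 w, 704 to 785 at 8 w and 265 to 324 at 9 w. In B6 it was 57.3 to 57.5 at 0 w, 190 at 2 w, 140 to 150 at 4 w, 430 to 432 at 8 w and 225 at 9 w. The sum peaked at 8 w in both strains, when all 10 members in DBA/2 had means below those at 4 w. In B6 the Atf3 mean was higher at 8 w (-3.69) than at 4 w (-3.91), and Jun (-3.98) and Nr4a1 (1.83) had equal means at both times.

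Zfp36 was the member whose group means followed the mean of the neutrophil markers most closely (r = 0.81 over 10 groups), followed by Atf3 (0.7), Junb and Ier2 (0.68 each) and Jun (0.53). The values were 0.42 for Dusp1, 0.22 for Fos, 0.14 for Nr4a1, -0.07 for Fosb and -0.34 for Egr1. The summed signal of 6 monocyte markers ran from 93.9 to 99.5 in DBA/2 at 0 w and from 213 to 238 at 8 w, and from 127 to 138 in B6 at 0 w and from 174 to 192 at 8 w. Nr4a1 followed their mean at 0.6 and Atf3 at 0.65. Of 7 T cell markers 1, 2, 6 and 6 were lower in DBA/2 at the 4 times, and 5, 3 and 5 in B6 at 4, 8 and 9 w. Of 6 B cell markers 5, 4, 5 and 5 were lower in DBA/2, and in B6 2 were higher at 2 w and 4 lower at 4 w. Of 5 NK cell markers 4 were higher in DBA/2 at 4 w and at 8 w, while 5, 4 and 4 were lower in B6 at 4, 8 and 9 w. Of 5 platelet markers 5, 4, 1 and 5 were higher in DBA/2, while in B6 5 were lower at 2 w and 4, 3 and 2 were higher at the later times. Dusp1 followed the platelet mean at 0.52, Junb at 0.47 and Fos at 0.44. The part of the cell mixture in the member changes was not tested.

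Hepatocyte markers, which leukocytes should lack, had a summed relative signal of 48.2 to 49.2 in B6 0 w and 28.3 to 29.3 in B6 8 w, and 0.598 to 1.59 in the other 8 groups. At least 8 of 9 were well above background in each B6 0 w and B6 8 w sample, including Alb, the serum albumin gene, at 3.90 and 3.87 in B6 0 w. In the other groups 3 to 5 of the 9 were. Every B6 change above is set against these B6 0 w samples, and all 9 markers were lower in B6 at 2, 4 and 9 w. The part of this RNA in the B6 changes was not tested.

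Heat shock genes, which respond to stress of cells before or after bleeding, rose widely in DBA/2. Of 6 tested, 5, 4, 4 and 5 were higher at 2, 4, 8 and 9 w in DBA/2, and 3 were higher in B6 at 9 w, while 4 were lower in B6 at 8 w. Hspa1a, the inducible HSP70 gene, lay at -4.96 and -5.88 in DBA/2 at 0 w, -4.20 and -3.68 at 2 w, -2.61 and -2.62 at 4 w, -3.94 and -3.80 at 8 w, and -1.49 and -1.64 at 9 w. It rose in DBA/2 by 1.48, 2.80, 1.55 and 3.85 at the 4 times (adjusted p of 0.00685 or less). Its DBA/2 0 w values were the lowest of all samples and lay far apart, and it was not well above background in every sample. The reference behind these sizes is therefore weakly determined. At 0 w, 5 of the 6 heat shock genes were lower in DBA/2 than in B6, Hspa1a by a log2 difference of -2.61. The strains lay on different slides there.

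In B6 Hspa1a lay at -2.81 and -2.80 at 0 w, -3.52 at 2 w, -2.62 and -2.96 at 4 w, -3.74 and -4.05 at 8 w, and -1.16 at 9 w. At B6 4 w, where Fos was higher by 3.36, Hspa1a differed by 0.01 (adjusted p = 0.989), and at B6 8 w Hspa1a fell by 1.09 (adjusted p = 0.0208) where Fos was higher by 0.62. At 9 w both rose in both strains, Hspa1a by 1.64 in B6 (adjusted p = 0.0157). Over the 10 group means Fos followed the mean of the heat shock genes at r = 0.54, Atf3 at 0.47, Dusp1 at 0.44 and Zfp36 at 0.16. The time from bleeding to stabilization of the RNA is not given in the sources used here, and the part of blood handling in the member levels was not tested.

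**Figure D4:**
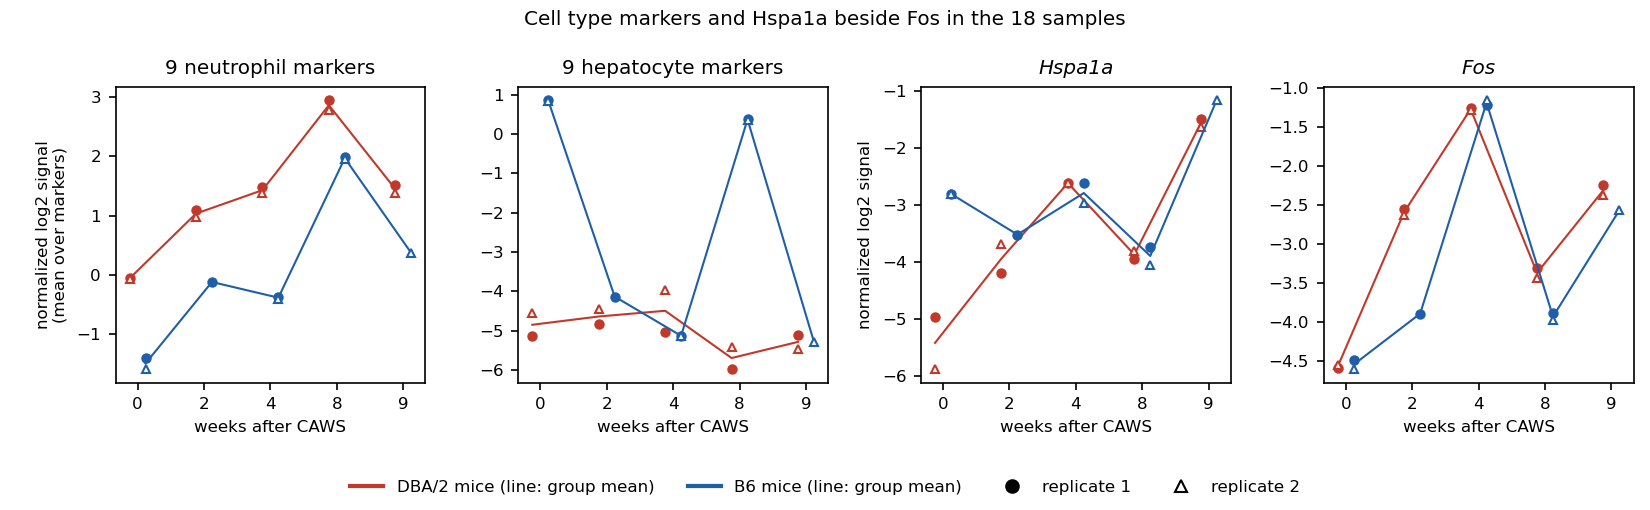
Mean normalized log2 signal of 9 neutrophil markers and of 9 hepatocyte markers, and the normalized log2 signal of Hspa1a and Fos (vertical axes), by week after CAWS (horizontal axes) for DBA/2 in red and B6 in blue, filled circles for replicate 1 and open triangles for replicate 2. The neutrophil mean peaks at 8 w, the hepatocyte mean is high in B6 at 0 w and 8 w, and Fos peaks at 4 w in both strains while Hspa1a peaks at 9 w.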

How the data were processed

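Leukocyte RNA from whole blood was labelled with Cy3 and hybridized in single colour to Agilent Whole Mouse Genome 4x44K arrays. The authors deposited Feature Extraction 9.5.3.1 scanner files, whose processed signal is a background-subtracted intensity per spot, not normalized between arrays; depth does not apply, and the number of arrays limits the precision. Per the file headers, probe positions are on mm8. The deposited value table equals that intensity within 2.41e-05 percent.

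Outlier spots (0.371%) and control spots were left out, spots of a probe were averaged, and log2 intensity was centred on the 75th percentile of each array. The 22939 probes with a signal well above background in 2 or more of 18 samples entered 1 linear model (limma 3.58.1, R 4.3.3) with 1 coefficient per strain-by-week group over all samples and no covariate, leaving 8 residual degrees of freedom, and p-values were Benjamini-Hochberg adjusted over all probes (threshold 0.05). The fit was tested on simulated data. For a gene with several probes, the probe with the highest mean signal over all samples stood for the gene. Probes were named by accession (24375), by the file's symbol (6301) or by a synonym (2426), and 8072 stayed unmatched. The named genes are all 10 members, up to 3 genes of the listed pathways with the largest passing change in each direction and comparison, and the 3 genes with the most similar profile per member.

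The members and lists were chosen with earlier results of these data known. Replicate numbers coincide with the scan day. Alternatives covered the background correction, normalization, filter, outlier spots, probe choice, replicate or slide as a block, single arrays and leaving out each sample. Motif searches used Python 3.11.15 and figures matplotlib 3.10.9.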

Additional observations from a re-analysis of the deposited data

Results flagged for a closer look

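These results stood out because the change from 0 w differed between the strains in a test of the difference itself (limma, adjusted over all probes), a test that 11.8% of all probes also passed for 4 w and 17.5% for 8 w. The values within replicates 1 and 2 come from the same samples that passed the test, so their agreement is no separate support. With normexp correction none of the differences on a main probe stayed called. The 4 w change was larger in DBA/2 than in B6 for Atf3 by 1.5 on the log2 scale (adjusted p = 0.00212; 1.14 and 1.86 within replicates 1 and 2) and for Nr4a1 by 0.78 (adjusted p = 0.00156; 0.77 and 0.78). At 8 w it was larger in DBA/2 for Fos by 0.59 (adjusted p = 0.00983; 0.68 and 0.49), for Dusp1 by 0.76 (adjusted p = 0.00102; 0.73 and 0.78), for Atf3 by 0.73 (adjusted p = 0.0482; 0.39 and 1.08), for Nr4a1 by 0.47 (adjusted p = 0.0156; 0.49 and 0.44) and for the second Ier2 probe by 1.34 (adjusted p = 0.0116; 1.83 and 0.86). The B6 side of each rests on the B6 0 w samples with hepatocyte RNA, and the part of that RNA in these differences was not tested. The Atf3 difference at 8 w missed the threshold in 19 of 31 other settings.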

How the results depend on the processing

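With 2 samples per group and replicates as close as repeat arrays, 63 member calls were made. Of these, 63 remained with the 75th percentile over all probes, the deposited value table, a filter at 9 of 18 samples, outlier spots kept, the replicate block or the slide as a random block, 61 with either array of B6 0 w replicate 2 alone, 58 with quantile normalization, 58 with the mean of a gene's probes, 51 without a filter and 19 with normexp (offset 50). Normexp gave 1 call in DBA/2 at 2 w and 3 at 8 w, 0, 2, 1 and 1 in B6 at the 4 times, 0 between strains at 0 w and 0 for either strain difference in the change. It turned the B6 changes of Fos to 0 at 2 w and -0.66 at 8 w, of Jun to -0.6 and of Atf3 to -0.45 at 8 w. With it the median over all probes lay between -0.63 (B6 8 w) and 0.78 (DBA/2 9 w), against -0.18 to 0.08 in the main fit. The offset of 50 was added to every signal before the log2, while the scanner signals of Fos at 0 w ran from 11 to 20.44. The 75th percentile of all spots was 87.45 on the B6 8 w replicate 1 array and 45.24 on that of B6 0 w replicate 1. The part of the offset in these changes was not tested. Fos, Jun, Egr1 and Atf3 each had samples not well above background, which limits how well their fold changes are known. The mean of both probes turned Ier2 to -0.38 in B6 at 8 w and -0.15 between strains at 0 w, where 2 calls remained. Without a filter B6 2 w had 2 calls and the strain difference at 8 w 1, quantile normalization left 2 at 8 w, and the slide block gave 4 at 4 w. The replicate block, tried though same-numbered samples shared a scan day and, for DBA/2 at 0 to 8 w, a slide (correlation of deviations 0.02 to 0.41 over 28 pairs, 14 over 0.1), gave 69 calls and changed no count by over 1.5 times. Leaving out 1 sample gave 6 to 7, 8 to 9, 7 to 9 and 5 to 7 calls in DBA/2, 3 to 4, 6 to 8, 6 to 7 and 5 in B6, 4 to 5 at 0 w, 2 at 4 w and 2 to 4 at 8 w for the strain difference, and no value where the lone B6 2 w or B6 9 w sample was left out. Chosen after seeing the data, a fit on each strain alone kept 44 of 53 calls (2 in B6 at 2 w). Also chosen then, taking each group as 1 sample and counting changes of at least 2-fold without a test gave 38 in all, with 4 in DBA/2 at 9 w, 1 in B6 at 2 w, 4 at 8 w, 0 between strains at 0 w and 1 for the difference at 4 w and 1 at 8 w, where 4.86% to 19.1% of all probes passed 2-fold.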
